A study of Mus musculus with 10 samples.

Results

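The LY6 surface protein family was examined in subcutaneous kidney tumours of mice after injection of an agonist of RIG-I, which senses viral RNA in the cytosol. The members were the family genes Ly6a, Ly6c1, Ly6c2, Ly6e, Ly6i, Ly6k and Ly6d that have a row in the deposited table of raw counts. This gave 4 of the 7 genes, Ly6a, Ly6c1, Ly6c2 and Ly6e, among 18603 genes in the table, and all 4 passed the filter on low counts. Ly6d, Ly6i and Ly6k are not analysed here.

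All tumours grew from RENCA, a mouse kidney cancer cell line, placed under the skin of female Balb/c mice, and each group held 5 tumours from 5 mice. Treated tumours received SLR14, a 3pRNA with a stem-loop shape, in lipid nanoparticles in 50 µL of PBS. Control tumours received PBS alone, so an effect of the RNA cannot be told apart from one of its lipid carrier. Mice entered the groups when tumours reached 100 to 150 mm3, had 3 injections 48 h apart, and gave tumours for polyadenylated RNA sequencing 24 h after the last one. Age of the mice is not given in the labels, and all tumours came from 1 cell line.

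LY6 proteins are small, carry a three-finger fold held by disulfide bonds, and mostly sit on the outer cell membrane through a glycosylphosphatidylinositol anchor. Ly6a encodes Sca-1, a marker of mouse blood stem cells that activated lymphocytes and many endothelial cells also carry. Ly6c1 and Ly6c2 encode the 2 forms of Ly6C, of which Ly6c2 is best known from classical monocytes and Ly6c1 from endothelial cells and some lymphocytes. Ly6e encodes a broadly expressed member known for blocking the entry of coronaviruses. Type I interferon is known to induce Ly6a and Ly6e.

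The likeness of Ly6c1 and Ly6c2 bears on how far their counts can be separated, so the stretches that part and join them are shown here. All 4 genes lie on chromosome 15, Ly6a, Ly6c1 and Ly6c2 on the minus strand and Ly6e on the plus strand. In the GENCODE M21 transcripts (GRCm38), the coding sequences of Ly6c1 and Ly6c2 were each 396 bases long and matched at 387 positions, or 97.7%. The 9 differences left an identical run of 188 bases, from coding base 66 to 253, within exons 2 to 4.
Ly6c1 and Ly6c2 shared run: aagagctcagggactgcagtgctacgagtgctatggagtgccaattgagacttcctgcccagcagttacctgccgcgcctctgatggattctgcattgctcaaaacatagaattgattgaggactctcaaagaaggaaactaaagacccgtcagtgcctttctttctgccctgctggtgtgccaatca
A read that lies inside that run carries nothing to tell the genes apart. The 90-base coding window with the most differences was the first one, from base 1 to 90 in exons 2 and 3, with 6 differing bases given in capitals.
Ly6c1: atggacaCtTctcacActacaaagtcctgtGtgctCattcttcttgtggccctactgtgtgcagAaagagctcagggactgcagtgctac
Ly6c2: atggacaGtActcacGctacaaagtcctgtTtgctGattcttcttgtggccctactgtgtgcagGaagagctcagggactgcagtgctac
Ly6a was farther from both, with 83.8% identity to Ly6c1 and 83.6% to Ly6c2 over 396 aligned coding bases.

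Over whole transcripts, the share of windows that also occur in another gene fell with window length. At 50 bases it was 32.8% for Ly6c1, 31.2% for Ly6c2, 19.0% for Ly6a and 0% for Ly6e. At 150 bases it was 2.29% for Ly6c1, 5.44% for Ly6c2 and 0% for Ly6a. Counts of Ly6c1 and Ly6c2, and less so Ly6a, are therefore uncertain where a read falls in a shared stretch, since how the reads were counted is not given in the sources used here. No window of Ly6e was shared at any of the 4 lengths.

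**Figure D1:**
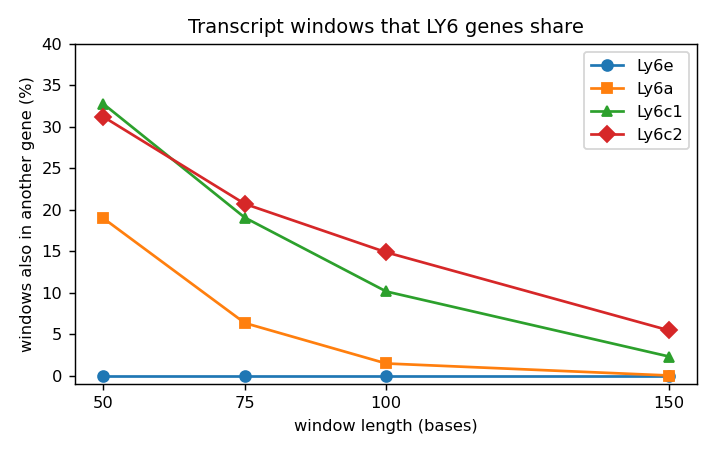
Percent of transcript windows (vertical axis) of 50, 75, 100 or 150 bases (horizontal axis) that also occur in a transcript of another gene, 1 line per LY6 gene. Ly6c1 and Ly6c2 start above 31% and keep shared windows at 150 bases, Ly6a reaches 0% there, and Ly6e is at 0% throughout.

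Promoter windows from RefSeq, 250 bases before to 50 after the start on GRCm38.p6, were matched for Ly6c1 and Ly6c2, which differed in behaviour in 1 tumour, and are shown to let the neighbouring copies be compared upstream. For both genes the table holds 2 windows, and the one farther upstream is shown. Ly6a and Ly6e had no match. Both windows are on the minus strand of chromosome 15, Ly6c1 at chr15:75048788-75049087 and Ly6c2 at chr15:75111922-75112221. The capitals mark identical runs of at least 12 bases in their alignment.
Ly6c1: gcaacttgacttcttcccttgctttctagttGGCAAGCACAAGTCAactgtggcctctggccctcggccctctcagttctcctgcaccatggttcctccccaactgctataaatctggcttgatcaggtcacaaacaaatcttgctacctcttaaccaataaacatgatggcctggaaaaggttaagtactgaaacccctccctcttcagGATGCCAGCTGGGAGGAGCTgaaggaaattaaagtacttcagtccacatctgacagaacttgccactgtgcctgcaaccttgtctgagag
Ly6c2: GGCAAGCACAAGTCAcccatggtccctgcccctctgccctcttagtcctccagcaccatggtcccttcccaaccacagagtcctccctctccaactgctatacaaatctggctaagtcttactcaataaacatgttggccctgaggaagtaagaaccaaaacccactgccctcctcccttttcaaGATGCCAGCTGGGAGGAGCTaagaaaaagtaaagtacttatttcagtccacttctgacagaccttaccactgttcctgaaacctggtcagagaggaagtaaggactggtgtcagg
The windows were identical at 78.2% of 266 aligned positions, and the 2 marked runs held 35 bases, the longest 20. On both strands, the letters GAAANNGAAA, the core of an interferon-stimulated response element, stand in 3.44% of 32851 promoters of this length, and TTCNNNGAA, the core of a STAT site, in 8.30%. Neither was found in these 2 windows.

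Total counts per tumour ran from 17931895 to 39842608. Tests by edgeR's quasi-likelihood method took in 15883 genes, of which 107 were higher and 46 lower in SLR14 tumours at an adjusted p under 0.05, and the median log2 fold change of all tested genes was -0.01. Leaving out PBS 1 brought the 153 calls to 69, PBS 3 to 78, SLR14 1 to 77, SLR14 3 to 75 and SLR14 4 to 89. On the first principal component of log2(CPM + 1), which held 36.4% of the variance, PBS 5 stood apart at 54.5, with the others between -17.0 for SLR14 2 and 10.8. Of the renal epithelial markers that check the labelled origin, 10 of 12 have counts, and Krt8 (keratin 8) was at 1415 ± 190 CPM and Pax8, a kidney transcription factor, at 92.2 ± 16.7 CPM in PBS tumours (SD, n = 5). Both were named after their values were seen.

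Of the 4 LY6 genes, 2 passed the test as higher in SLR14 tumours, Ly6a and Ly6c1, where 0.674% of all tested genes did so, and 0 passed as lower, where 0.29% did (for the members, 0 at an unadjusted p under 0.05 as well, and 0 by DESeq2 and limma voom). Counting groups that do not overlap, 3 of the 4 were higher in every SLR14 tumour than in any PBS tumour, Ly6e as well, where 1.92% of tested genes were. Ly6c2 was higher in 4 of 5 SLR14 tumours. Values are given as CPM, counts relative to library size, here scaled by the trimmed mean of M values (TMM).

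**Figure D2:**
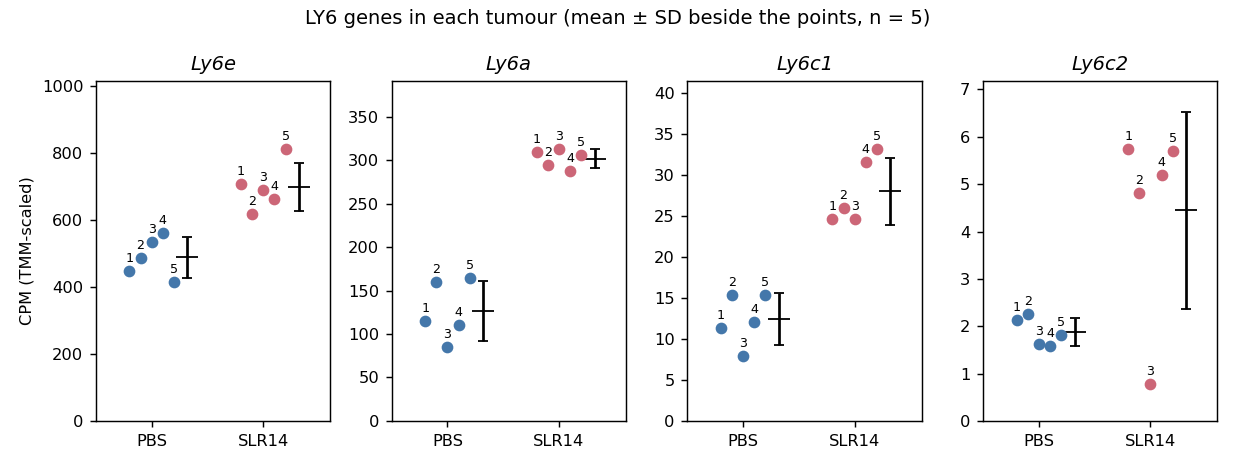
CPM (vertical axis, from 0) of each LY6 gene in 5 PBS and 5 SLR14 tumours (horizontal axis). Points are tumours with their number, and the bar beside them is the mean with its SD. The groups are apart for Ly6e, Ly6a and Ly6c1, and SLR14 3 lies under all PBS tumours for Ly6c2.

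Ly6a, the gene of Sca-1, rose in every SLR14 tumour. In PBS tumours 1 to 5 it measured 115, 160, 84.7, 110 and 165 CPM, and in SLR14 tumours 1 to 5 it measured 309, 294, 313, 287 and 306 CPM. The lowest SLR14 tumour was thus above the highest PBS tumour, and the SLR14 tumours lay within a narrow band. The means were 127 ± 34.4 and 302 ± 10.7 CPM (SD, n = 5), a log2 fold change of 1.25 ± 0.16 (SE), or 2.38-fold, with an adjusted p of 0.00205 by edgeR's quasi-likelihood test. The SD was 27.1% of the mean in PBS and 3.55% in SLR14 tumours, a difference in spread that was not tested. By p-value Ly6a ranked 19 of all 15883 genes.

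Ly6c1, a Ly6C gene, moved in the same direction at a lower level. It measured 11.4, 15.4, 7.88, 12.1 and 15.4 CPM in PBS tumours 1 to 5 and 24.7, 26.0, 24.6, 31.6 and 33.2 CPM in SLR14 tumours 1 to 5. Again the groups were apart, PBS 3 was the lowest PBS tumour for both Ly6a and Ly6c1, and SLR14 5 was the highest for Ly6c1. The means of 12.4 ± 3.14 and 28.0 ± 4.08 CPM (SD, n = 5) gave a log2 fold change of 1.17 ± 0.17 (SE), 2.25-fold, with an adjusted p of 0.00451 by edgeR's quasi-likelihood test.

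Ly6c2, the other Ly6C gene, was the least abundant, and in SLR14 tumours its SD was 46.8% of its mean, against 15.9% in PBS tumours. It measured 2.13, 2.25, 1.62, 1.59 and 1.82 CPM in PBS tumours 1 to 5, and 5.74, 4.82, 0.787, 5.20 and 5.70 CPM in SLR14 tumours 1 to 5. The 4 higher SLR14 tumours were above all PBS tumours, and SLR14 3 was below all of them, with 31 counts in the most deeply sequenced library. The log2 fold change was 1.23 ± 0.39 (SE), or 2.34-fold, with an adjusted p of 0.239 by edgeR's quasi-likelihood test, and did not pass the threshold. Without SLR14 3 it was 1.51 with an adjusted p of 0.00239, so 1 tumour decided the call. DESeq2 gave it an adjusted p of 0.0491 over all tumours, and limma voom a log2 fold change of 0.83 with an adjusted p of 0.594.

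Ly6e, the member known for blocking the entry of coronaviruses, had the highest CPM and the smallest fold change of the 4. It measured 447, 486, 534, 562 and 414 CPM in PBS tumours 1 to 5 and 707, 618, 690, 663 and 812 CPM in SLR14 tumours 1 to 5. All SLR14 tumours were above all PBS tumours. The means were 489 ± 60.8 and 698 ± 72.1 CPM (SD, n = 5), a log2 fold change of 0.51 ± 0.11 (SE), or 1.43-fold, and the adjusted p of 0.0507 by edgeR's quasi-likelihood test just missed the threshold. It passed without PBS 4 (adjusted p = 0.0480) or without PBS 5 (0.0392), and by DESeq2 (0.00121) and limma voom (0.0497). Under 14 of 19 alternatives Ly6e did not pass, for example without SLR14 1 (adjusted p = 0.146, edgeR's quasi-likelihood test).

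So the count of members that rose was 2 by edgeR, 3 by limma voom and 4 by DESeq2, where 0.674%, 0.617% and 1.35% of the genes tested by each rose. Ly6a and Ly6c1 passed under all 19 alternatives, with log2 fold changes of 1.14 to 1.37 and 1.05 to 1.28. These are bulk tumours, in which more cells of a type and more RNA per cell cannot be told apart.

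**Figure D3:**
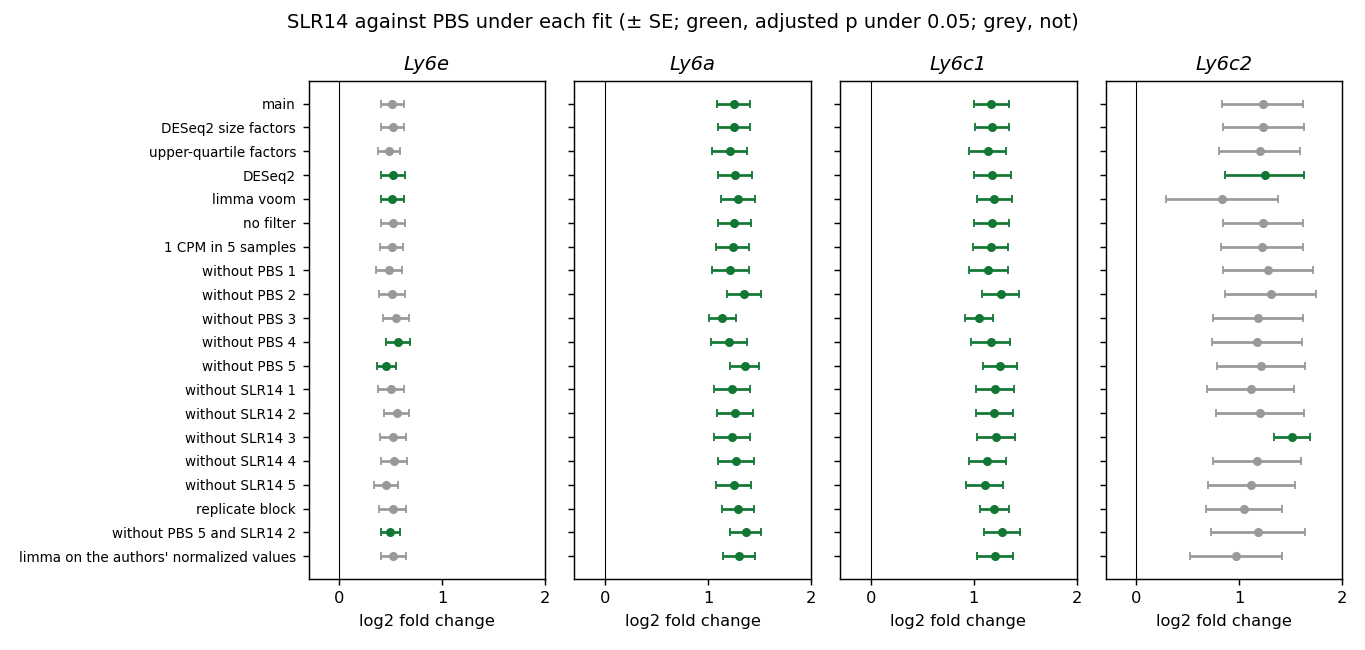
Log2 fold change with its SE (horizontal axis) of each LY6 gene in the reported fit (top line, main) and 19 alternatives (vertical axis). Green points have an adjusted p under 0.05 and grey ones do not. Ly6a and Ly6c1 are green throughout, Ly6c2 is green under DESeq2 and without SLR14 3, and Ly6e lies close to 0.5 on the green and grey lines alike.

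Since reads of the near copies can be shared between rows, 2 sums were tested in place of the single rows. Ly6c1 and Ly6c2 together rose by a log2 fold change of 1.18 with an adjusted p of 0.00366 by edgeR's quasi-likelihood test. Ly6a, Ly6c1 and Ly6c2 together rose by 1.24 with an adjusted p of 0.00200 in the same test. Both sums stayed past the threshold under their 18 alternatives. A sum does not depend on how reads were divided among its own rows. The first still depends on the division with Ly6a, with which Ly6c1 shares 195 of its 578 shared 50-base windows, and both depend on reads counted elsewhere or left out.

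Levels between genes were compared per kilobase of the longest coding transcript (955 bases for Ly6a, 844 for Ly6c1, 822 for Ly6c2 and 2281 for Ly6e). In PBS tumours the order was Ly6e at 214 ± 26.6, Ly6a at 133 ± 36.0, Ly6c1 at 14.7 ± 3.72 and Ly6c2 at 2.29 ± 0.363 CPM per kilobase (SD, n = 5). In SLR14 tumours Ly6a at 316 ± 11.2 and Ly6e at 306 ± 31.6 did not differ beyond their spread, and Ly6c1 at 33.2 ± 4.83 and Ly6c2 at 5.41 ± 2.53 CPM per kilobase followed. Within each group the order of Ly6a and Ly6e was the same with another length, but the gap between them was not. With the merged length of all exons, Ly6a stood at 105 and Ly6e at 129 in PBS, and at 250 and 184 in SLR14 tumours. Ly6c1 and Ly6c2 stayed below both with either length.

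The relation of one LY6 gene to another within a tumour needs no scaling between libraries. Between Ly6a and Ly6e counts the log2 ratio averaged -1.98 ± 0.54 over PBS and -1.20 ± 0.13 over SLR14 tumours (SD, n = 5), a difference of 0.78 given as a description, since the ratio was chosen after the fold changes of both genes were seen. The groups overlapped, from -2.66 to -1.33 in PBS and from -1.41 to -1.07 in SLR14 tumours. The difference stayed between 0.61 and 0.94 with any 1 tumour left out. The next ratio was chosen in the same way and is likewise a description. How far reads from stretches that Ly6a and Ly6c1 share enter it was not tested. Ly6c1 counts were 7.87 to 11.0% of Ly6a counts over the 10 tumours, and the log2 ratio of Ly6c1 to Ly6a averaged -3.35 ± 0.10 after PBS and -3.44 ± 0.23 after SLR14 (SD, n = 5, difference -0.09, between -0.16 and -0.03 with any 1 tumour left out).

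Ly6c2 gave 13.6 ± 2.75% of the summed Ly6c1 and Ly6c2 counts after PBS and 13.3 ± 5.99% after SLR14 (SD, n = 5), a difference of -0.270 percentage points (two-sided exact permutation p = 0.960, smallest possible 0.00794). PBS tumours ranged from 10.6 to 17.1%. SLR14 tumours 1, 2, 4 and 5 had 18.9, 15.7, 14.1 and 14.7%, and SLR14 3 had 3.10% (Wilson 95% interval 2.19 to 4.36%, for counting error only). The intervals of the other 9 tumours all lay above that of SLR14 3. Without SLR14 3 the difference turned to 2.28 points (exact permutation p = 0.206), without PBS 1 to 0.280 points and without PBS 3 to 0.605 points.

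**Figure D4:**
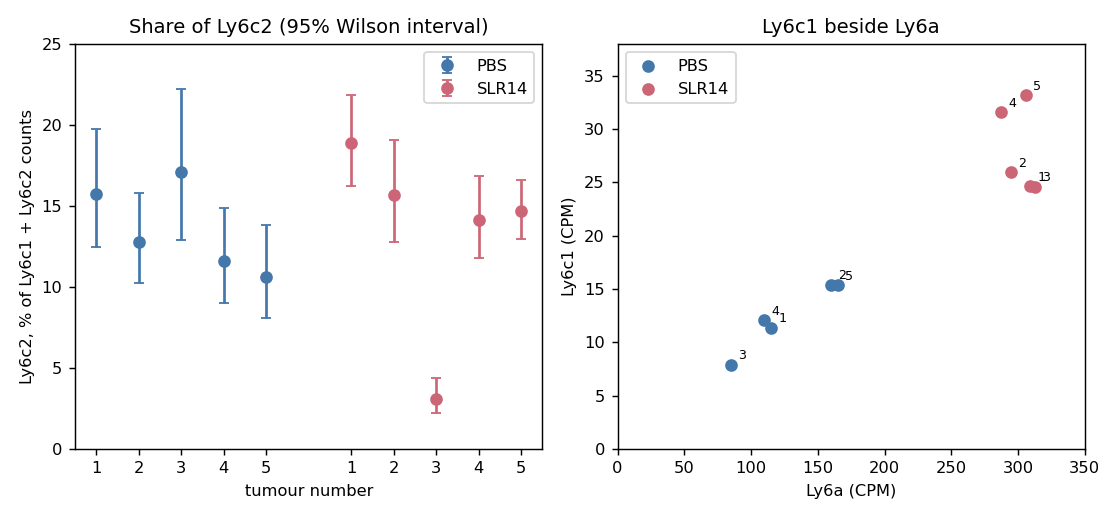
Left, Ly6c2 as a percent of Ly6c1 plus Ly6c2 counts (vertical axis) in each tumour (horizontal axis), with Wilson 95% intervals, where SLR14 3 at 3.10% lies below the other 9. Right, CPM of Ly6c1 (vertical axis) against Ly6a (horizontal axis), 1 numbered point per tumour, where SLR14 tumours lie above PBS tumours on both axes.

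The genes with the most similar pattern were sought by the root mean square difference of centred log2(CPM + 1) values over the 10 tumours, among tested genes with a mean of at least 1 CPM. Ly6a and Ly6c1 were each other's nearest gene of all, at 0.174. Of the 1764 50-base windows of Ly6c1, 195 also occur in Ly6a, and how far shared reads enter this likeness was not tested. Outside the family, Ly6a was nearest to Ccl7, a monocyte-attracting chemokine (0.226), and Ifitm3, an antiviral membrane protein (0.227), and Ly6c1 to Ifitm3 (0.287) and Apol9a (0.289). Ccl7 rose by 1.14, Ifitm3 by 1.07 and Apol9a by 0.87 in log2 fold change, with adjusted p-values of 0.0256, 0.000768 and 0.0241 by edgeR's quasi-likelihood test. They were picked for likeness, over the same tumours, to members that rose, so their own rise is not independent of that choice. Ccl7 lost its call without PBS 1, PBS 3, PBS 4, SLR14 1 or SLR14 3 (adjusted p up to 0.0838), and Apol9a without PBS 1, PBS 3, SLR14 1, SLR14 3 or SLR14 4 (up to 0.0772).

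Ly6e was nearest to Il22ra1, a receptor chain for interleukin 22 (0.0961), and Tap2, a subunit of the peptide transporter for antigen presentation (0.103). Their log2 fold changes were 0.67 and 0.47, with adjusted p-values of 0.149 and 0.135 by edgeR's quasi-likelihood test. Ly6c2 had no neighbour as near: Fdps, an enzyme of isoprenoid synthesis, stood at 0.447 and Cdhr2, a cadherin of the brush border, at 0.464. Among SLR14 tumours both were lowest in SLR14 3, as Ly6c2 was. All these nearest genes were picked over the same tumours, so their shared lows and fold changes are not independent of that choice. The measure depends on a gene's level, since the added 1 CPM shrinks low genes, and Il22ra1 averaged 1.99 CPM after PBS and 3.15 CPM after SLR14.

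Among other genes for proteins with the LY6 and uPAR domain, none passed. Of 42 on the list, 14 have counts and 9 were tested, with mean levels of 0.602 to 43.1 CPM, and 0 rose and 0 fell by edgeR's quasi-likelihood test (3 at an unadjusted p under 0.05; DESeq2 called 1 higher and 1 lower of 14). Their median log2 fold change was 0.16 beside -0.01 over all tested genes. Cd59a, which blocks the complement pore, had -0.61 (23.9 ± 7.22 CPM after PBS and 15.7 ± 0.699 after SLR14, SD, n = 5), with an adjusted p of 0.127 that became 0.0377 without PBS 5.

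The other relatives did not pass with any 1 tumour left out. Cd177, a neutrophil surface protein, had a log2 fold change of 2.33 with an adjusted p of 0.181 at 0.250 and 1.38 CPM, and ranged from 0.369 to 3.69 CPM in SLR14 tumours. Lypd6b, Lypd3 and Lynx1, a modulator of acetylcholine receptors, had 0.47, 0.66 and 0.18, with adjusted p-values of 0.367, 0.522 and 0.625 by the same test. Ly6g2, named after its values were seen, averaged 2.19 CPM after PBS and 1.99 CPM after SLR14 (adjusted p = 0.937).

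Genes on chromosome 15 beside the Ly6 cluster but outside the family gave 1 higher and 0 lower of 19 tested, with a median log2 fold change of 0.07. The 1 was Arc, an early-response gene of neurons, at 11.0 ± 0.409 CPM after PBS and 17.5 ± 3.70 after SLR14 (SD, n = 5), with a log2 fold change of 0.66 and an adjusted p of 0.0324 by edgeR's quasi-likelihood test. It lost the call without PBS 1, PBS 2, PBS 3, PBS 4, SLR14 2, SLR14 3 or SLR14 5 (adjusted p up to 0.0887). Mafa, a transcription factor of islet cells, had 0.40 with an adjusted p of 0.198.

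Of 40 interferon-stimulated genes, 29 rose and 0 fell, with a median log2 fold change of 0.90, and all 40 had a positive one. Irf7, the interferon regulator, rose by 2.46 (adjusted p = 0.000396) and Rsad2, the antiviral enzyme viperin, by 1.78 (adjusted p = 0.000493, edgeR's quasi-likelihood test). Of the 40, 13 had a larger fold change than Ly6a, 16 than Ly6c1 and 33 than Ly6e. Ly6a and Ly6c1 thus lay above the median of these genes, and Ly6e below it. The count of 29 became 16 without PBS 1, PBS 3, SLR14 1 or SLR14 3 and 19 without PBS 2. The summed level of the list was 1517 to 1771 CPM after PBS and 2445 to 3235 CPM after SLR14, highest in SLR14 3, the tumour with the lowest Ly6c2.

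**Figure D5:**
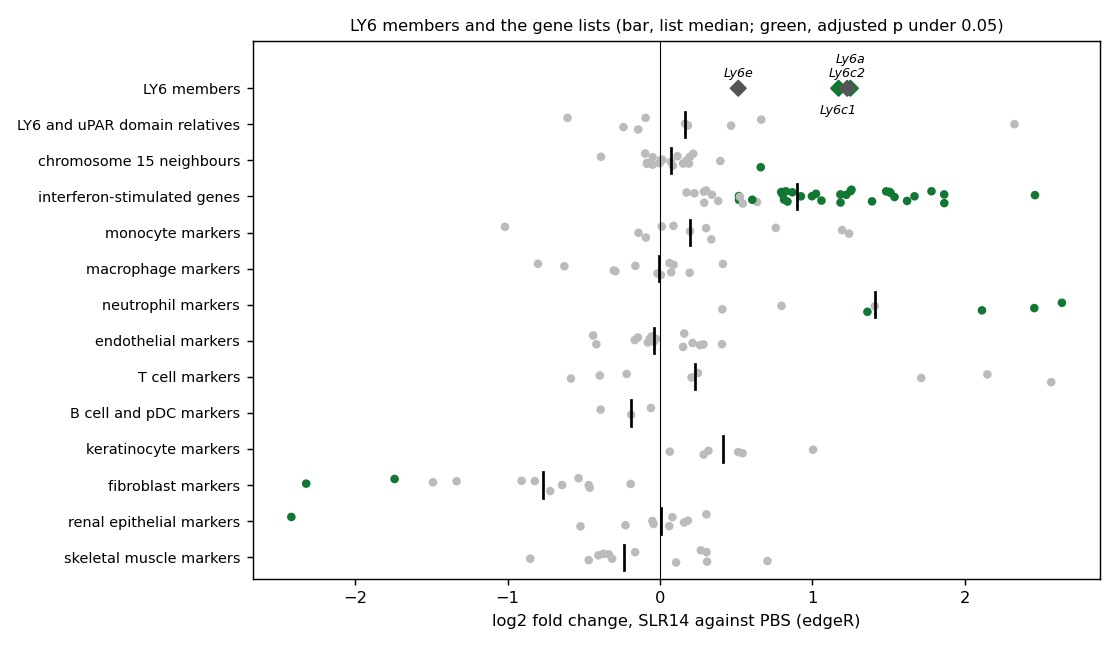
Log2 fold change (horizontal axis) of the 4 LY6 genes (diamonds) and of the tested genes of each list (points, with small vertical offsets for display). Green marks an adjusted p under 0.05 and the black bar is the list median. Ly6a, Ly6c1 and Ly6c2 lie among the interferon-stimulated genes with a median of 0.90 and the neutrophil markers with a median of 1.41. These LY6 genes lie to the right of most endothelial, macrophage and fibroblast markers.

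Markers of cells that can carry LY6 proteins were read beside the members, and their part in the members' changes was not tested. In each list, every marker with a row had counts in at least 1 tumour. Of 11 tested monocyte markers 0 passed (4 at an unadjusted p under 0.05; DESeq2 called 3 higher of 12), with a median log2 fold change of 0.20. Their summed level had a median of 721 CPM after PBS and 594 CPM after SLR14, and SLR14 tumours ran from 515 to 645 CPM. Of the PBS tumours, 4 lay above all of these, at 695 to 745 CPM, and PBS 5 lay among them at 532 CPM. Hp (haptoglobin), at 1.67 CPM after PBS and 3.96 CPM after SLR14, had 1.24 with an adjusted p of 0.0759 by edgeR's quasi-likelihood test. It passed without PBS 5 (adjusted p = 0.00745). The tested monocyte markers with a fold change below 0 were F13a1 (-1.02), Cx3cr1 (-0.14) and Csf1r (-0.09), named after their values were seen. Ccr2, the chemokine receptor of classical monocytes, measured 47.3 ± 5.79 CPM after PBS and 50.1 ± 21.1 CPM after SLR14 (SD, n = 5). Ccr2 was named after its values were seen. In SLR14 3, where Ly6c2 was lowest, the monocyte sum was the lowest of all tumours at 515 CPM. The macrophage and T cell sums were also lowest there, at 2011 and 29.1 CPM. Not every monocyte marker was low in SLR14 3. Ccr2 was at 48.9 CPM, and Plac8, named after its values were seen, at 20.0 CPM, its highest among SLR14 tumours.

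Of 15 endothelial markers 0 passed (0 at an unadjusted p under 0.05 and 0 by DESeq2), with a median of -0.04 (-0.11 to 0.09 with any 1 tumour left out) and 9 of 15 below 0. Their summed level was 253 to 456 CPM after PBS and 325 to 420 CPM after SLR14, and the groups overlapped. Erg, an endothelial transcription factor, had -0.44 and Plvap, a protein of fenestrae, 0.26, with adjusted p-values of 0.525 and 0.607 by edgeR's quasi-likelihood test. Pecam1, named after its values were seen, measured 43.2 ± 11.7 and 38.4 ± 7.33 CPM (SD, n = 5).

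Of 7 tested neutrophil markers, with a median log2 fold change of 1.41, 4 rose and 0 fell, Lcn2, S100a8, and, named after their values were seen, S100a9 and Mmp8. Lcn2 (lipocalin 2) rose by 1.36 (adjusted p = 0.00106) and S100a8, a subunit of calprotectin, by 2.11 (adjusted p = 0.0127, edgeR's quasi-likelihood test), the latter from 0.735 to 3.25 CPM. The count was 2 without PBS 3, and 1 with limma voom, where S100a8 missed the threshold (adjusted p = 0.0521). DESeq2 called 7 of 11. The summed level was 46.9 to 58.9 CPM after PBS and 93.4 to 183 CPM after SLR14. Lcn2 alone averaged 36.0 ± 2.70 CPM after PBS and 92.7 ± 24.7 CPM after SLR14 (SD, n = 5), and made up most of the sum. The sum thus mainly follows this 1 gene, and which cells gave its RNA was not tested. Csf3r, Cxcr2 and Mmp9, named after their values were seen, had log2 fold changes of 0.41, 1.41 and 0.80. They did not pass, with adjusted p-values of 0.562, 0.111 and 0.464 by edgeR's quasi-likelihood test.

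Of 8 tested T cell markers 0 passed (4 at an unadjusted p under 0.05; DESeq2 called 3 higher of 12), and 2 did without PBS 4. Their median log2 fold change was 0.23, and 0.09 to 0.76 with any 1 tumour left out. Cd3e, part of the T cell receptor complex, had a log2 fold change of 2.57 with an adjusted p of 0.0791 at 0.183 and 1.15 CPM, and Cd6 had 1.72 with an adjusted p of 0.0942. Values below 0 were those of Cd4 (-0.58), Thy1 (-0.40) and Cd247 (-0.22), named after their values were seen. Without PBS 4, Cd3e passed (adjusted p = 0.0110, edgeR's quasi-likelihood test). The summed level was 31.1 to 53.3 CPM after PBS and 29.1 to 43.8 CPM after SLR14, lowest in SLR14 3.

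Macrophage markers gave 0 passing of 12 (3 at an unadjusted p under 0.05; DESeq2 called 1 lower), with a median log2 fold change of -0.01 (-0.12 to 0.08 with any 1 tumour left out) and summed levels of 2537 to 2763 CPM after PBS and 2011 to 2663 CPM after SLR14. Apoe had -0.63 with an adjusted p of 0.0637 and passed without PBS 2 (0.0470), and Ms4a7 had -0.29 (0.421, edgeR's quasi-likelihood test). Above 0 were Fcgr1 (0.41), C1qc (0.19), C1qb (0.09), C1qa (0.07), Adgre1 (0.06) and Cd68 (0.01), named after their values were seen. The other macrophage markers were below 0. Of 12 fibroblast markers 0 rose and 2 fell, Fap by a log2 fold change of -1.74 (adjusted p = 0.0126) and Dpp4 by -2.32 (adjusted p = 0.0235). All 12 had a negative fold change, with a median of -0.77. The part of fibroblasts, some of which carry Ly6a and Ly6c1, in the changes of these members was not tested. Dpp4 lost its call without PBS 1, SLR14 1 or SLR14 3 (adjusted p up to 0.0714).

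Of 10 renal epithelial markers, with a median log2 fold change of 0.01 (-0.11 to 0.07 with any 1 tumour left out), 0 rose and 1 fell, Epcam, an adhesion protein of epithelia, by -2.42 (adjusted p = 0.0324, edgeR's quasi-likelihood test), a call lost without PBS 1, PBS 3, PBS 4, SLR14 1, SLR14 2, SLR14 3 or SLR14 4 (adjusted p up to 0.0936). Cdh16, kidney cadherin, had -0.52 with an adjusted p of 0.0788, which became 0.0359 without PBS 5. None of the 6 tested keratinocyte markers passed in edgeR or DESeq2 (1 at an unadjusted p under 0.05, median log2 fold change 0.42), and Krt16 and Krt17 had 1.01 and 0.32. None of the 3 tested B cell and plasmacytoid dendritic cell markers passed in either (0 at an unadjusted p under 0.05, median -0.19), with Cd79a at -0.39 and Pax5 at -0.19. The same held for the 12 skeletal muscle markers (0 at an unadjusted p under 0.05, median -0.24). That median turned to 0.29 without PBS 3, 0.08 without PBS 5 and 0.03 without SLR14 2, and was -0.53 without SLR14 4. Of these genes Myh4 had 0.71 and Myh2 -0.85 in log2 fold change, both signs turning under other settings, Myh2 to 0.58 without PBS 3. The summed muscle markers ran from 44.4 to 281 CPM in PBS and from 3.93 to 276 CPM in SLR14 tumours.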

How the data were processed

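Polyadenylated RNA of 10 tumours was measured. The authors deposited raw counts per gene and a second table of normalized signal, in which each sample's counts are scaled by its own factor. The submitters' processing notes name STAR, DESeq2 1.36.0, Trim Galore 0.6.7 and the build mm39. Which program counted reads, with which annotation and strand setting, is not given in the sources used here, and reads of antisense or overlapping genes cannot be told apart. Of the genes, 74 have no symbol and were kept.

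Counts were filtered with filterByExpr (minimum count 10), scaled by TMM and tested with edgeR 4.0.16's quasi-likelihood test of SLR14 against PBS over all 10 samples in R 4.3.3, with Benjamini-Hochberg adjustment over 15883 genes at 0.05. SEs were derived from each gene's log2 fold change and F statistic. The procedure was tested on simulated data. DESeq2 1.42.0, limma 3.58.1 (voom, and the authors' normalized values), other scalings and filters, each tumour left out, and a replicate block were alternatives, with PBS 5 and SLR14 2 left out added after seeing the data. For the Ly6c2 share an exact permutation test (two-sided) was run in scipy 1.17.1. Groups come from sample titles. Same-numbered tumours were treated as unpaired, since the titles only number them. Of 5 correlations of their deviations 1 was above 0.1, which cannot show whether the design was paired.

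The members and lists were chosen with earlier results of these data known. Named genes were all members, of the relatives and chromosome 15 neighbours those past the threshold and the 5 and 2 smallest p-values, of each other list the 2 smallest, and for each member the 2 genes nearest in pattern. The value of 1 gene the rule names is left out. Transcript sequences are GENCODE M21, which matched 17797 of 18603 identifiers, and promoters RefSeq, both on GRCm38 and not on the authors' build.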

Additional observations from a re-analysis of the deposited data

Results flagged for a closer look

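Of 124 groups of 5 tumours checked, 12 held 1 tumour far from the other 4 by Dixon's test, where chance gives about 5% of groups. Among the LY6 genes this was Ly6c2 in SLR14 3, at 0.787 CPM beside 4.82 to 5.74 CPM in the other SLR14 tumours. Of the relatives, Cd59a was at 36.6 CPM in PBS 5 (others 18.9 to 22.9) and Ly6g2 at 4.14 CPM in PBS 5 (others 1.36 to 2.15). Beside the cluster, Arc was at 23.8 CPM in SLR14 4 (others 14.5 to 17.1) and Mafa at 38.8 CPM in SLR14 5 (others 35.2 to 36.1). Among markers, Plvap was at 99.5 CPM in SLR14 5 (others 68.1 to 73.0), Cd3e at 0.569 CPM in PBS 4 (others up to 0.159), and Pax5 at 13.6 CPM in PBS 5 (others 26.6 to 31.7) and 28.1 CPM in SLR14 5 (others 21.4 to 22.6). Summed monocyte markers were at 532 CPM in PBS 5 (others 695 to 745), summed endothelial markers at 420 CPM in SLR14 5 (others 325 to 350) and summed keratinocyte markers at 170 CPM in SLR14 5 (others 33.9 to 65.5).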

How the results depend on the processing

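Ly6a, Ly6c1 and both sums kept direction and call under every alternative run for them, and no LY6 gene changed sign under any of its 19. The count of genes called was 407 with DESeq2, 78 with the replicate block and 69 to 194 without 1 tumour, and members higher were 4 with DESeq2 and 2 to 3 without 1 tumour. The Ly6c2 share differed by -1.67 to 2.28 points without 1 tumour, positive at 0.280 without PBS 1, 0.605 without PBS 3 and 2.28 without SLR14 3. Myh4 turned to -0.68 with limma voom and -1.08 on the authors' normalized values, and Myh2 ran from -1.25 to 0.58 without 1 tumour. Under the replicate block the interferon-stimulated count was 18 and the neutrophil count 1, and Arc, S100a8 (adjusted p = 0.0537), Fap, Ccl7 and Apol9a lost their calls, while no LY6 gene's call changed. No tumour correlated best with its own number in both directions. With PBS 5 and SLR14 2 left out, an alternative added after seeing the data, Ly6e passed (adjusted p = 0.0205). The causes were not tested. Ly6c2 had 31 to 214 counts per tumour.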
